A study of Mus musculus with 2 samples.

Results

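Expression of 10 chemokine genes that intestinal epithelium can produce (Ccl6, Ccl9, Ccl20, Ccl25, Ccl28, Ccl5, Cxcl16, Cxcl10, Cxcl14 and Cx3cl1) was compared between RankL-treated and untreated mouse small-intestinal organoids. They were found as the 12 non-control array probes, of 41174, whose RefSeq accession maps to these symbols, with 2 probes each for Ccl25 and Cxcl16 and 1 for each other gene. The treated group was organoids of wild-type mice cultured with recombinant mouse RankL, used at 50 to 200 ng/ml and renewed with the medium on days 2 and 5, and the untreated group was the same kind of organoid without RankL. Both grew in crypt medium containing EGF, Noggin and R-spondin, and the sources used here do not give the dose, harvest time, strain or age behind these RNAs. Both RNAs were hybridised together on 2 dual-colour Agilent arrays, with Cy3 marking RankL RNA on array 1 and Cy5 marking it on array 2, which the labels call a dye swap. The design is therefore 1 RNA per group, so differences are described by size, without tests, and each ± gives the SD between the 2 arrays, which is technical error and says nothing of the spread between cultures.

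Chemokines are small secreted proteins that guide leukocytes by binding G protein-coupled receptors, and they are named by the spacing of their first cysteines (CC, CXC, CX3C). RankL binds RANK and activates canonical and noncanonical NF-kB signalling, and in the follicle-associated epithelium over Peyer's patches it drives the formation of M cells, which carry luminal antigen to the lymphoid cells beneath. That epithelium is known for Ccl20, the ligand of Ccr6, and for Ccl9, which attracts myeloid cells through Ccr1. Ccl25 and Ccl28 are epithelial chemokines that call gut-homing lymphocytes through Ccr9 and Ccr10, while Cxcl16 and Cx3cl1 are made as transmembrane proteins and bind Cxcr6 and Cx3cr1.

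Ccl20, Ccl6, Ccl9 and Cxcl16 were far higher with RankL, by 64.1-fold, 52.1-fold, 29.4-fold and 7.55-fold, the first a fold against an untreated signal that was above background on 1 of 2 arrays. Ccl25 was 2.29-fold higher by the brighter of its probes. A gene counted as higher or lower if its log2 ratio of RankL over untreated averaged at least 1 in size and reached 0.5 in that direction on each array. By this rule 5 of the 9 measured chemokines were higher, 0 were lower and 4 were neither, whereas 5.47% of the 12877 measured genes or accessions were higher and 2.5% lower. Measured means that at least 1 of the RNAs was well above background on both arrays. The median log2 ratio was 1.19 over the 9 measured chemokines and 0.01 over all measured genes. The 10 genes were chosen with earlier results of these data known. In bulk RNA, more cells making a transcript and more transcript per cell cannot be told apart.

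The chemokines well above background were not the same in each RNA. In RankL RNA 8 of 10 were well above background on both arrays, against 6 of 10 in untreated RNA. Over all non-control spots the shares on arrays 1 and 2 were 38.3% and 43.4% for RankL RNA, against 39.6% and 40.1% for untreated RNA. Ccl6, Ccl9, Ccl25, Cxcl16 and Cx3cl1 were above background in both RNAs on both arrays. Ccl20 was above background in RankL RNA on both arrays and in untreated RNA on array 2 but not on array 1. Ccl5 and Cxcl10 were above background in RankL RNA on both arrays and in untreated RNA on neither, and Ccl28 showed the opposite pattern. These calls lay near the edge of the flag. In RankL RNA on array 1, Cxcl10 at a log2 intensity of 6.54 was above background and Ccl28 at 6.53 was not. Cxcl14, a CXC chemokine of epithelia whose receptor is not settled, was above background in neither RNA so its ratio carries no direction.

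**Figure D1:**
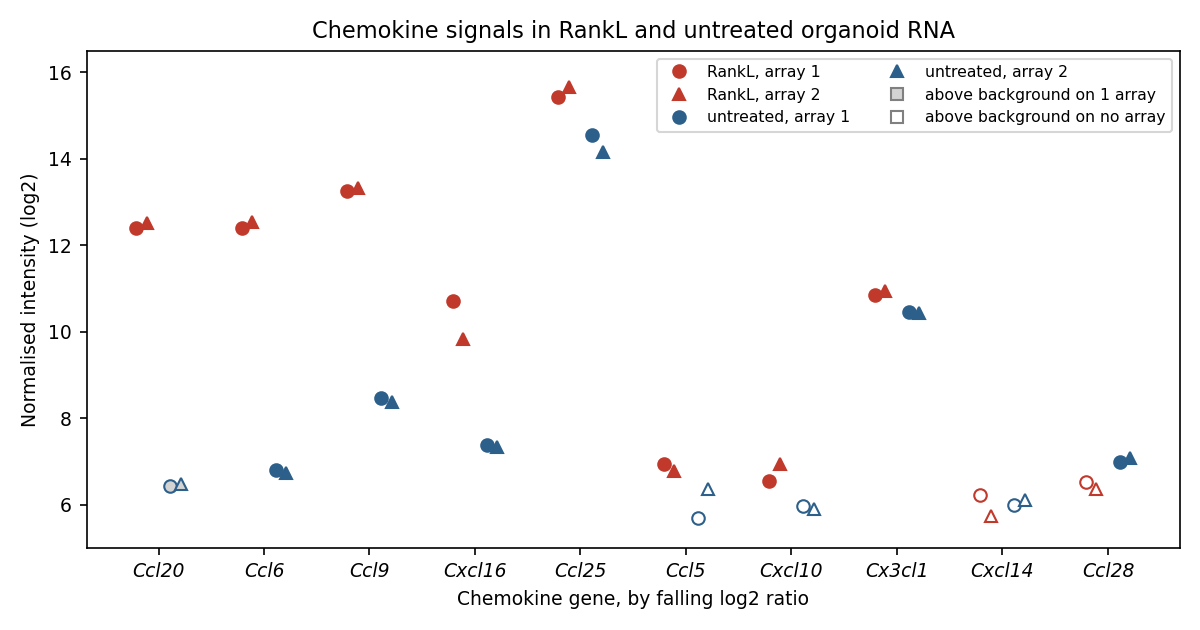
Normalised log2 intensity (y axis) of each chemokine gene (x axis, by falling log2 ratio), with RankL RNA in red to the left of untreated RNA in blue, circles for array 1 and triangles for array 2. Markers are filled where that RNA was well above background on both arrays, grey on 1 array and open on none; Ccl20, Ccl6 and Ccl9 lie above 12 with RankL, against 6.44 to 8.46 untreated. Heights of different genes come from different probes and are not comparable.

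The upstream sequences of Ccl20, Ccl9 and Ccl6, which had the largest ratios, and of Cxcl10 are shown because NF-kB is the pathway that RankL activates. Each is the 250 bases before the annotated start, 5′ to 3′ on the gene's strand, from RefSeq on build GRCm38.p6. Capitals mark matches on either strand to GGAAANNCC, a short NF-kB-like form. Other NF-kB-like forms are left in lower case, such as gggacttccc in the Cxcl10 window.
Ccl20 (chr1:83116516-83116765, plus strand): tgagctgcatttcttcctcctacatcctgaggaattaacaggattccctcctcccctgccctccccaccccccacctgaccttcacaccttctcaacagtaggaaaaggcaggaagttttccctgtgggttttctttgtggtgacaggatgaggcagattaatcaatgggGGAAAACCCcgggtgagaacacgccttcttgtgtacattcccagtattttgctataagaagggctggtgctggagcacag
Ccl9 (chr11:83578637-83578886, minus strand): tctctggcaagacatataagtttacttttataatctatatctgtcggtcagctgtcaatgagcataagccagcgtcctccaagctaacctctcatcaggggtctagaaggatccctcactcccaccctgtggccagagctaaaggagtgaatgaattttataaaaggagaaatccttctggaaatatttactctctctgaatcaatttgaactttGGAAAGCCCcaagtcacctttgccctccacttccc
Ccl6 (chr11:83593088-83593337, minus strand): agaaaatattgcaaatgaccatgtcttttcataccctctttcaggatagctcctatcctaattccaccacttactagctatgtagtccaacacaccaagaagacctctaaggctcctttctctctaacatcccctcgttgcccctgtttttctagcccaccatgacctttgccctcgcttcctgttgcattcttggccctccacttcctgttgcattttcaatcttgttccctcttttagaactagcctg
Cxcl10 (chr5:92348890-92349139, minus strand): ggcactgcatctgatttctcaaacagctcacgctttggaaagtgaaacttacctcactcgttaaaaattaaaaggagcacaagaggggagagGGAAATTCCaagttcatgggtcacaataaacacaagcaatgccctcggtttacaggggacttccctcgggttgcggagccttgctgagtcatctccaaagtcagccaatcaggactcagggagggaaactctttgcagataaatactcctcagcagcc

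RefSeq windows were found for 8 of the 10 genes (9 windows, as Ccl25 has 2 starts), and Ccl5 and Cxcl16 were not matched. GGAAANNCC occurred in 3 of these 9 windows, each of a different gene, and in 4.93% of all 32851 windows of this length. The Ccl20 match, GGAAAACCC, began 80 bases before the start, the Ccl9 match, GGAAAGCCC, 35 bases before it and the Cxcl10 match, GGAAATTCC, 158 bases before it, all on the gene's strand. The Ccl6 window held none. GAGGAAGT, a core bound by Spi-B and PU.1, was in 0 of the 9 windows as this exact run and in 2.44% of all windows. The shorter aggaagt was not counted. It occurs in the Ccl20 window and, as its reverse complement acttcct, in the Ccl6 window. GGAAANNCC was settled on after the ratios and the matches to longer forms had been seen, so its share of the windows supports nothing. A match is a run of letters, not a site.

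Ccl20, the only known chemokine ligand of Ccr6, which draws B cells and immature dendritic cells to the follicle-associated epithelium, had the largest mean ratio of the 10. Its normalised log2 intensity was 12.40 and 12.52 in RankL RNA, against 6.44 and 6.48 in untreated RNA, on arrays 1 and 2. The scanner read 4848.5 and 6013 for the RankL spots over local backgrounds of 21 and 111, against 140.5 and 63 for the untreated spots over 110 and 23. The RankL signal stood far above background in either dye, while the untreated signal was barely above it. The log2 ratio was 5.96 and 6.04, a mean of 6.0 ± 0.060. With a normexp offset of 16, which adds less to faint signals before the logarithm, it was 6.67, and in the scanner software's deposited ratios 7.88. With the untreated signal so close to background, the size of this ratio rests on how that faint signal is treated. Ccl20 read above Ccl6 in every setting, by margins that also moved. The values were 6.67 against 6.22 with the offset of 16 and 7.88 against 6.84 in the software's ratios.

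Ccl6 and Ccl9 are CC chemokines found in rodents that attract myeloid cells through Ccr1. Ccl6 had normalised log2 intensities of 12.41 and 12.53 in RankL RNA, against 6.79 and 6.74 in untreated RNA, for a log2 ratio of 5.70 ± 0.13. Ccl9 had 13.26 and 13.33 in RankL RNA, against 8.46 and 8.38 in untreated RNA, for a log2 ratio of 4.88 ± 0.11. Both were above background in untreated RNA on both arrays, and in neither gene did the RNAs overlap. The Ccl6 ratio still moved with the background treatment, to 6.22 with an offset of 16 and 6.84 in the software's ratios, while Ccl9, brighter without RankL, read 5.02 and 5.12. The ratios of Ccl6 and Ccl9 differed from each other by more than their technical SDs.

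Ccl9 and Ccl6 are direct neighbours on chromosome 11, in a cluster of CC chemokine genes that also holds Ccl5, Ccl3 and Ccl4. The cluster order was, among protein-coding genes of RefSeq, Taf15, Heatr9, Ccl5, Ccl9, Ccl6, Ccl3, Ccl4. Ccl3 and Ccl4, the macrophage inflammatory proteins next to Ccl6, were not above background in either RNA and read 0.03 and -0.13 on the log2 scale. Taf15, outside the chemokines on the other side, was measured at -0.07 ± 0.19. The large ratios in this stretch were thus those of Ccl9 and Ccl6, with Ccl5 between them and the flank at 0.83.

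**Figure D2:**
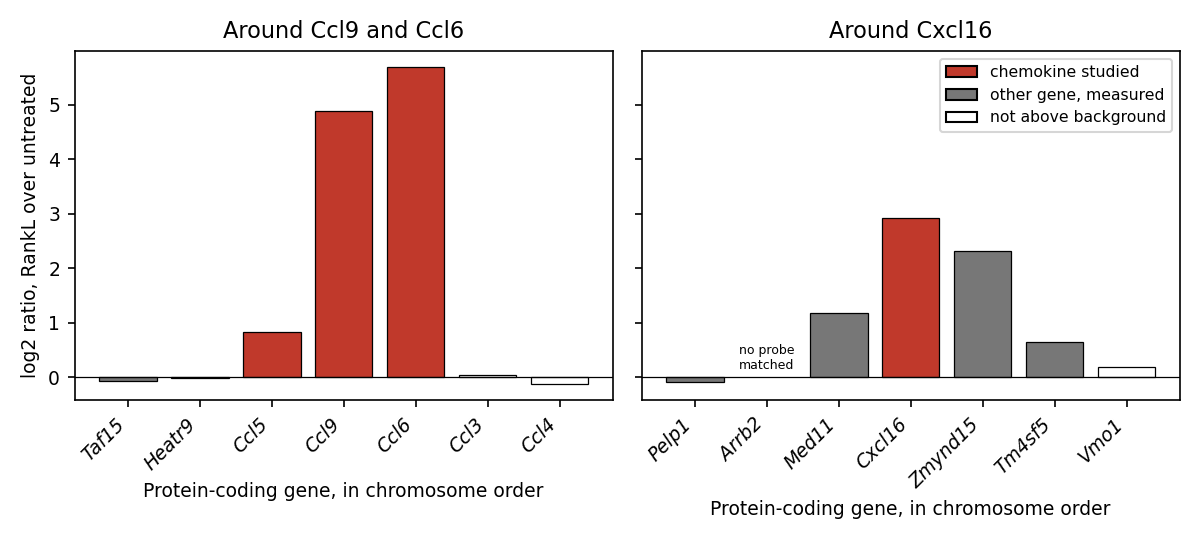
Log2 ratio of RankL over untreated (y axis, mean of 2 arrays) for protein-coding genes in chromosome order (x axis) around Ccl9 and Ccl6 (left) and around Cxcl16 (right). Red bars are the chemokines studied, grey bars other measured genes and white outlines genes not above background; Ccl9 at 4.88 and Ccl6 at 5.70 stand beside Ccl3 at 0.03, and Zmynd15 at 2.31 stands beside Cxcl16 at 2.92.

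Cxcl16, a transmembrane chemokine that holds or, once shed, attracts Cxcr6-bearing T cells, was higher by 2 probes that gave nearly the same mean. The brighter probe had log2 intensities of 10.70 and 9.84 in RankL RNA, against 7.38 and 7.33 in untreated RNA, for ratios of 3.32 and 2.51 and a mean of 2.92 ± 0.57. The second probe had 9.77 and 9.67 in RankL RNA, against 6.94 and 6.70 in untreated RNA, for a mean ratio of 2.90 ± 0.11. The arrays differed mainly in the RankL signal of the brighter probe, and all 4 ratios exceeded 2-fold. In the software's ratios the brighter probe read 3.64. Next to Cxcl16 on chromosome 11, Zmynd15 was at least 4.85-fold higher, since it was not above background in untreated RNA, with a measured log2 ratio of 2.31 ± 0.13. Med11, a Mediator subunit gene on the other side, was at 1.18 ± 0.0041, and the next measured genes, Tm4sf5 and Pelp1, were at 0.65 ± 0.28 and -0.09 ± 0.020. These neighbours were named after their values were seen.

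Cx3cl1, or fractalkine, the other transmembrane chemokine and the ligand of Cx3cr1 on mononuclear phagocytes, did not reach the threshold. Its log2 intensity was 10.86 and 10.94 in RankL RNA, against 10.45 and 10.44 in untreated RNA. The ratio was 0.41 and 0.50, a mean of 0.45 ± 0.066 or 1.37-fold, in the same direction on both arrays. The 2 transmembrane chemokines thus differed in ratio by far more than their technical SDs.

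Ccl25, which guides Ccr9-bearing lymphocytes to the small intestine, was bright in both RNAs and its 2 probes did not give the same call. The brighter probe had log2 intensities of 15.44 and 15.66 in RankL RNA, against 14.55 and 14.16 in untreated RNA, for ratios of 0.89 and 1.5 and a mean of 1.19 ± 0.43. The second probe had 10.67 and 10.36 in RankL RNA, against 9.99 and 9.96 in untreated RNA, for a mean of 0.54 ± 0.20. RankL was the higher side on both arrays for both probes, but the threshold was passed by the brighter probe alone. Averaged over both probes Ccl25 read 0.86, with median centring in place of loess 0.83, and on array 1 alone 0.89, each short of the threshold.

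Ccl28, the mucosal chemokine that attracts IgA plasma cells through Ccr10, was the one of the 9 measured genes among the 10 with a ratio below 0. Its log2 intensity was 6.53 and 6.35 in RankL RNA, against 6.98 and 7.07 in untreated RNA, and it was above background in the untreated RNA alone. Its measured log2 ratio was -0.45 and -0.72, a mean of -0.58 ± 0.19 or 1.5-fold lower with RankL, and did not meet the rule. In the scanner software's ratios it read -1.22 and -1.99 and did meet it, so the call of lower depends on the processing.

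Ccl5, which attracts T cells and monocytes, and Cxcl10, an interferon-inducible ligand of Cxcr3, appeared with RankL as faint signals. Ccl5 had log2 intensities of 6.93 and 6.78 in RankL RNA, against 5.69 and 6.36 in untreated RNA. Its log2 ratios were 1.24 and 0.43, and on the mean of the arrays it was at least 1.48-fold higher. Cxcl10 had 6.54 and 6.93 in RankL RNA, against 5.97 and 5.90 in untreated RNA. Its log2 ratios were 0.57 and 1.03, and on the mean of the arrays it was at least 1.46-fold higher. RankL signals lay above untreated ones on every array. That direction carries no support, since both genes counted as measured through RankL RNA alone. The measured log2 ratios of 0.83 ± 0.58 and 0.80 ± 0.32 did not meet the rule. With a normexp offset of 16 they read 1.48 and 1.40, and in the scanner software's ratios 2.59 and 2.97, and both met it. Cxcl14 had log2 intensities of 6.22 and 5.74 in RankL RNA, against 6.0 and 6.1 in untreated RNA, which overlap.

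**Figure D3:**
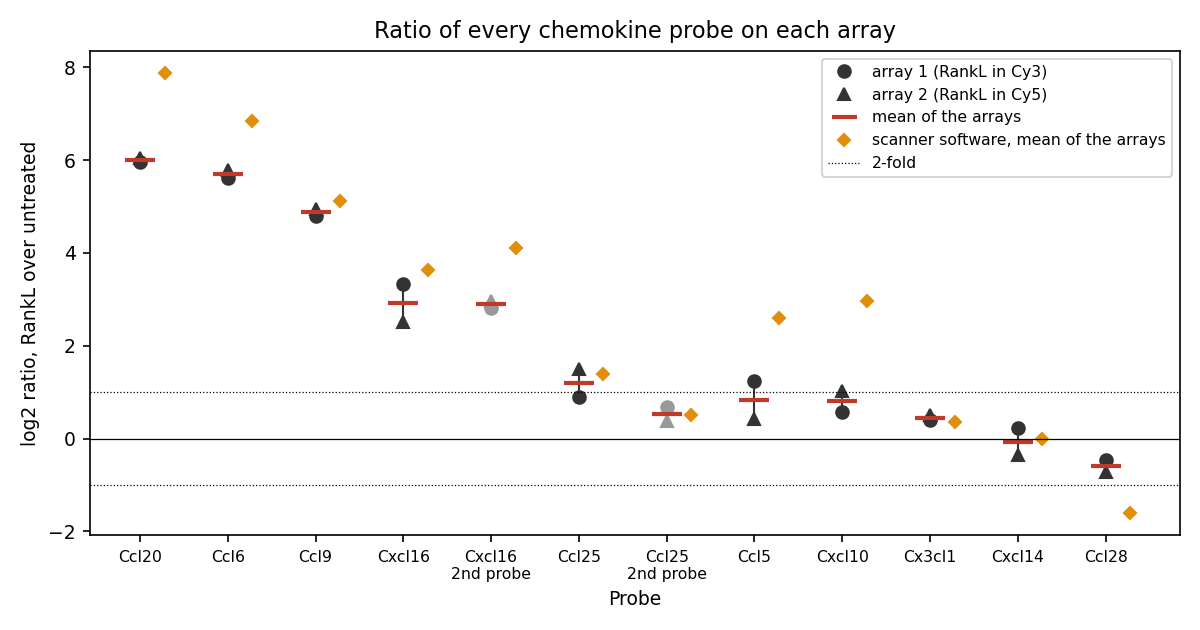
Log2 ratio of RankL over untreated (y axis) of all 12 chemokine probes (x axis), with circles for array 1, triangles for array 2, a red bar for their mean and a diamond for the mean of the scanner software's deposited ratios. Dotted lines mark 2-fold; Ccl20, Ccl6, Ccl9 and both Cxcl16 probes lie above the upper line in both scales, while the means of Ccl5, Cxcl10 and Ccl28 pass a line only in the software's ratios.

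Among the 5 chemokines above background in both RNAs on both arrays, the order of mean ratio was Ccl6, Ccl9, Cxcl16, Ccl25 and Cx3cl1. Ccl5, Cxcl10 and Ccl28 were dim in 1 RNA and have no place in that order, and in the software's ratios Cxcl10 at 2.97 and Ccl5 at 2.59 exceeded Ccl25 at 1.40. Over all measured genes the SD between arrays had a median of 0.148 and a 90th percentile of 0.382. Ccl25, Ccl5 and Cxcl16 exceeded that 90th percentile, and Ccl20, Ccl6, Ccl9 and Cx3cl1 lay below the median. Fut7 at 5.42, Ncf4 at 5.28 and Pglyrp2 at 5.24 were nearest to Ccl6 in the pair of array ratios. They were ranked among genes with a symbol above background in both RNAs, leaving out accessions without a symbol. Their distances were 0.41, 0.61 and 0.70 log2 units. This likeness rests on 2 arrays of 1 RNA pair.

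**Figure D4:**
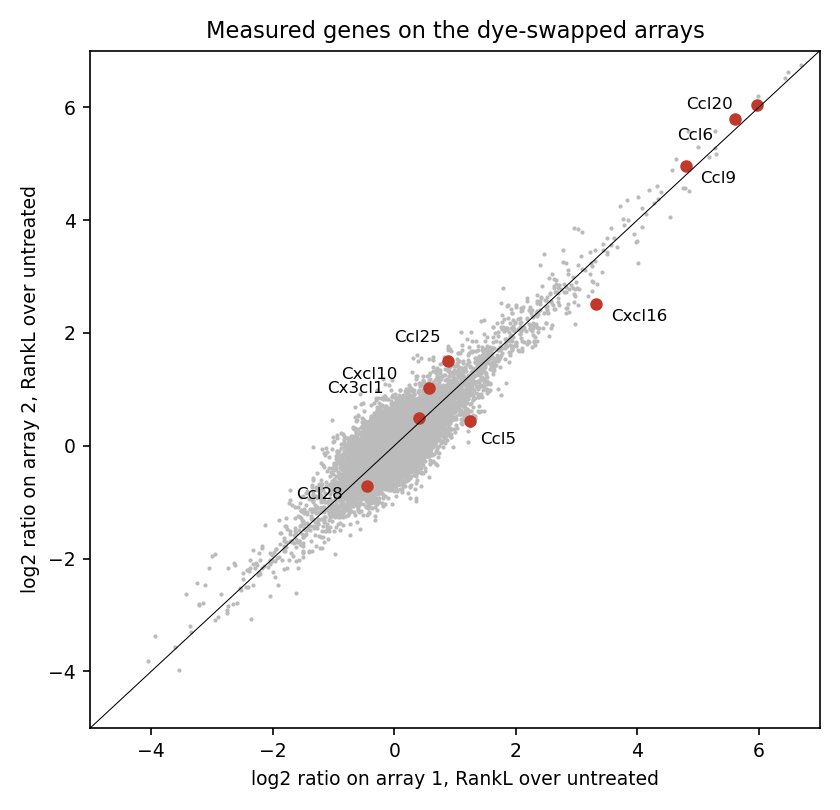
Log2 ratio of RankL over untreated on array 1 (x axis) and on the dye-swapped array 2 (y axis) for the 12877 measured genes or accessions in grey and the 9 measured chemokines in red, with the line of equality. Ccl20, Ccl6 and Ccl9 lie at the upper end close to the line, Cxcl16 and Ccl5 below it and Ccl25 above it.

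Most other chemokine genes were not detected on these arrays. Of 28 further chemokines listed, 26 had a probe and 4 were measured, of which 2 were higher, 0 lower and 2 neither. Pf4, the platelet chemokine Cxcl4, was not above background in untreated RNA and was at least 7.69-fold higher, with log2 intensities of 8.98 and 9.35 in RankL RNA, against 6.12 and 6.23 in untreated RNA. Ccl27a, a skin-associated ligand of Ccr10, was at 1.03 ± 0.022, a value uncertain for a single gene because near-identical copies exist in the mouse. Ccl2, the monocyte attractant, was at least 1.44-fold higher and dim without RankL, and Ccl19 was at -0.02 ± 0.12. The 22 that were dim included the neutrophil attractants Cxcl1, Cxcl2, Cxcl3 and Cxcl5, and log2 ratios of these 22 lay between -0.19 and 0.18.

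Receptors for the chemokines were mostly at background in the organoids. Of 21 receptor genes, all with a probe, 2 were measured and 0 met the rule. Ccr1, Ccr6, Ccr9, Ccr10, Cxcr3 and Cxcr6 were above background on no array in either RNA, and Cx3cr1 and Ccr3 on 1 array in RankL RNA alone. The 2 measured were Ackr3, the atypical receptor that scavenges Cxcl12, at least 1.59-fold higher and dim in untreated RNA, and Xcr1 at 0.17 ± 0.042. Among enzymes that cut chemokines, Dpp4, the peptidase that trims their N-termini, was lower at -1.89 ± 0.077, with a second measured probe at -1.13 and another, dim, at -0.09. The metalloproteinase Mmp7 was higher at 3.12 ± 0.13, and Adam17, a sheddase of Cx3cl1, was at 0.05 ± 0.19, while Adam10 was not matched to a probe.

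Among NF-kB genes, Nfkb2, Relb and the kinase Map3k14 of the noncanonical arm were higher at 2.75 ± 0.29, 1.82 ± 0.24 and 2.38 ± 0.26, while Rela was at 0.55 ± 0.31 by its brighter probe and 0.11 ± 0.19 by its second. Rel was not above background in either RNA, and Nfkb1 was not matched to a probe. Genes of M cells other than chemokines moved with Ccl20, Ccl9 and Ccl6, and their part in the result was not tested. All 7 listed were higher (median 3.71), namely Spib, Gp2, Tnfaip2, Anxa5, Marcksl1, Sox8 and Tnfrsf11b. Their summed normalised intensity was 47801 and 49005 in RankL RNA, against 2483 and 1956 in untreated RNA. Bright probes weigh most in such a sum, here Anxa5 with log2 intensities of 14.56 and 14.69 in RankL RNA. This list was drawn up with those values known.

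The labelled tissue was checked against its markers. All 8 epithelial markers (Epcam, Cdh1, Krt8, Krt18, Krt19, Vil1, Cdx2 and Cldn7) were above background in both RNAs on both arrays and 0 met the rule, with Krt18 at -0.92 ± 0.29 and Vil1 at 0.81 ± 0.075 the extremes. Of 14 leukocyte markers 13 had a probe, and that of Cd3e was flagged as an outlier on array 1 and gave no ratio. Of the 12 others, Ptprc, Cd3g, Itgam, Itgax, Csf1r, Adgre1 and Lyz2 among them, 0 were measured and 10 were above background on no array in either RNA. Their log2 ratios lay between -0.11 and 0.11, and their summed intensity was 851 and 883 in RankL RNA, against 885 and 850 in untreated RNA, so these listed markers were at or near background in both. The 4 listed endothelial markers were also at background, with sums of 270 and 259 in RankL RNA, against 263 and 254 in untreated RNA. Genes outside these lists that leukocytes or vessels can express did meet the rule and were named after their values were seen. Aif1 was at 3.40 ± 0.64, Cd79b at 1.80 ± 0.04 and Vwf at 1.15 ± 0.13, all above background in both RNAs. Siglecf, Stab1, Trem2 and Cd34, above background with RankL alone, were higher by at least 4.74-fold, 4.26-fold, 3.61-fold and 2.45-fold. The part of these genes in the chemokine ratios was not tested. Of 6 fibroblast and mesenchymal markers 3 were measured, Acta2 at 0.62 ± 0.036 (a second measured probe at -0.09), Col1a2 at 0.17 ± 0.17 and Pdgfrb, dim without RankL, at 0.90 ± 0.23. Their list summed to 2496 and 2451 in RankL RNA, against 1723 and 1711 in untreated RNA, with Col1a1, Col3a1 and Pdgfra at background. Acta2 weighed most in that sum, with log2 intensities of 10.88 and 10.87 in RankL RNA, against 10.24 and 10.27 in untreated RNA. The part of this list in the chemokine ratios was not tested.

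**Figure D5:**
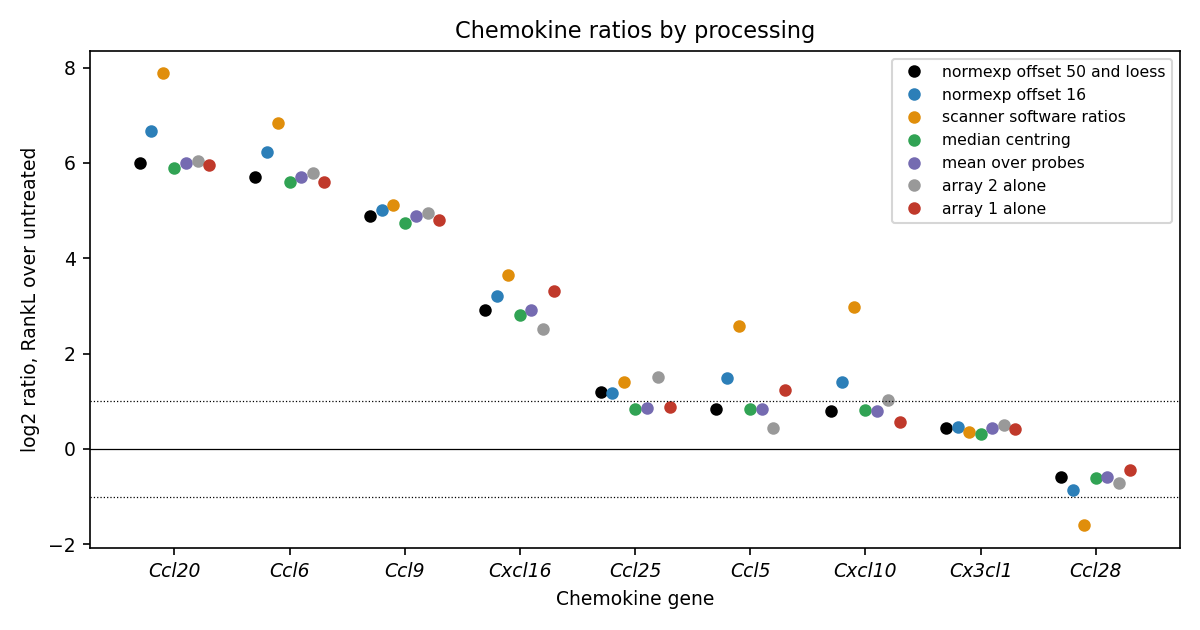
Log2 ratio of RankL over untreated (y axis) of the 9 measured chemokines (x axis) under the processing used and 6 alternatives, shown by colour, with dotted lines at 2-fold. Ccl20, Ccl6, Ccl9 and Cxcl16 stay above the upper line in each, Ccl25, Ccl5 and Cxcl10 fall on either side of it, Cx3cl1 stays below it, and Ccl28 crosses the lower line once.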

How the data were processed

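Total RNA of both organoid cultures was extracted (RNeasy), transcribed with T7 RNA polymerase and labelled with Cy3 or Cy5, per the labels' protocols. The deposited scanner files hold spot intensity as the median pixel brightness of each spot and its local background, and flags of 0 or 1, per the file headers, written by Agilent Feature Extraction, version 10.5.1.1, for a design on mouse build mm9; version 8.5.1.1 is named in the submitters' processing notes. That software also gave deposited log10 ratios (red over green) after its own background subtraction and dye normalization, per the file headers. The authors' series matrix holds the same log10 ratios within 5.0e-06, with the sign of array 1 turned to RankL over untreated, with a median of 0 in each column. No value column was left unused.

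With limma 3.58.1 (R 4.3.3), normexp with an offset of 50 removed background, and loess within each array normalized the ratios, giving the 1639 control spots of 45018 weight 0. These and outlier-flagged spots (170 and 164) were left out, and 0 spots were saturated. Of 43379 non-control spots, 38.3% and 43.4% were well above background for RankL RNA, against 39.6% and 40.1% for untreated RNA. Ratios run as RankL over untreated and were averaged over the arrays, which lay on 1 slide and count as 1 replicate. Spots of a probe were averaged, and a gene took its brightest measured probe. Names came from RefSeq accessions (GRCm38.p6), found for 26918 of 41174 probes. Intensities per RNA are after Aquantile normalization. For a gene dim in 1 RNA on both arrays, "at least" sets the bright mean against whichever is higher, the dim probe's signal or the lowest one well above background, under this setting only. It describes the mean of the arrays, so a single array can read lower. The calculation was tested on simulated data.

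The members and gene lists were chosen with earlier results of these data known. Named were all members, the listed genes that met the rule, and up to 4 of the brightest measured others per list. The 3 genes with a symbol nearest to the highest member above background in both RNAs were also named. Genes named beyond this, such as dim receptors, complete a count. The precision is limited by the single RNA per group.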

Additional observations from a re-analysis of the deposited data

How the results depend on the processing

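Ccl20, Ccl6, Ccl9 and Cxcl16 were higher by the rule under all 8 alternatives, with log2 ratios of 5.90 to 7.88, 5.6 to 6.84, 4.73 to 5.12 and 2.51 to 3.64. The count of chemokines higher was 7 with a normexp offset of 16, with the scanner software's ratios and with a threshold of 1.5-fold, each time through Ccl5 and Cxcl10, and 4 with median centring and with the mean over probes, without Ccl25. With 1 array left out it was 5 to 6, since array 1 alone called Ccl5 in place of Ccl25 and array 2 alone added Cxcl10. The count lower was 0 except for 1, Ccl28, with the scanner software's ratios, and 0 with either array left out. Ccl25 ranged from 0.83 to 1.5, Ccl5 from 0.43 to 2.59, Cxcl10 from 0.57 to 2.97, Cx3cl1 from 0.32 to 0.50 and Ccl28 from -1.60 to -0.45, and no measured chemokine changed sign. For Ccl5, Cxcl10 and Ccl28 the sign was largely set by being above background in 1 RNA alone. The median of the measured chemokines ran from 0.84 with median centring to 2.97 with the software's ratios. Over all genes the software's ratios called 1148 higher (8.92%) and 781 lower, and the threshold of 1.5-fold 1395 higher (10.8%) and 934 lower, against 704 and 322. Between the processing used and the software's ratios Cxcl10, Ccl20 and Ccl5 shifted most among the chemokines, and the cause was not tested. No paired analysis was possible because the arrays hold 1 RNA pair.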
